A study of Mus musculus with 6 samples.

Results

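The genes described here encode the nuclear part of the oxidative phosphorylation system, the respiratory chain and ATP synthase of the inner mitochondrial membrane. They were chosen by symbol from the transcript names of the deposited tables: every symbol beginning with Nduf, Uqcr, Atp5 or Cox4 to Cox8, with Sdha, Sdhb, Sdhc, Sdhd and Cycs, and without symbols marked as pseudogenes by -ps. This gave 91 of the 25896 gene symbols in the tables, and 89 of them passed the filter on low counts. Poly(A) RNA of mouse hippocampus was sequenced in 3 WT and 3 DICER1-ifKO libraries, and each library was a pool of RNA from 3 mice. All animals were male C57BL/6 mice carrying the floxed Dicer1 allele on both chromosomes, aged 3 months, given tamoxifen and examined 3 weeks later. The DICER1-ifKO mice also carried the CaMKIIa-creERT2 transgene and the WT mice did not, so that loss of Dicer1 and presence of the tamoxifen-activated recombinase cannot be told apart. The CaMKIIa promoter drives the recombinase in excitatory neurons of the forebrain, whereas the libraries hold RNA of the whole hippocampus. A lower value in such bulk RNA can come from fewer cells of a type or from less RNA per cell, which cannot be told apart.

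Electrons enter the respiratory chain from NADH at complex I, whose subunits carry the Nduf symbols, or from succinate at complex II, encoded by the Sdh genes. Complex III (the Uqcr genes) passes them to cytochrome c (Cycs), a small mobile carrier, and complex IV (the Cox genes) passes them on to oxygen. ATP synthase, also called complex V (the Atp5 genes), uses the resulting proton gradient to make ATP. Complexes I, III, IV and V also hold a few subunits encoded by the mitochondrial chromosome, while complex II is built from nuclear genes alone. Neurons depend heavily on this pathway for ion pumping and synaptic transmission. Dicer cuts precursor hairpins into mature microRNAs, which pair through their seed with sites mostly in 3′ UTRs.

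The members did not all code for respiratory subunits. Ndufaf1, Ndufaf2, Ndufaf3 and Ndufaf4 encode assembly factors of complex I, and Atp5sl, now named Dmac2, was placed with them. Atp5s encodes the coupling factor B of ATP synthase. Ndufa4 and Ndufa4l2 bear complex I names but were placed in complex IV, where the Ndufa4 product is found, together with Cox7a2l, whose product joins complexes III and IV. The symbol Cox4nb, now Emc8, met the rule although its product belongs to a membrane protein insertion complex of the endoplasmic reticulum. Its log2 fold change was 0.01 and it was left out of every description by complex. Values below are counts scaled to a common library size (CPM), with TMM factors, which assume that most genes do not differ, and a log2 fold change is DICER1-ifKO over WT.

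No member passed the test for a difference between the genotypes. With edgeR's quasi-likelihood test and an adjusted p threshold of 0.05 over 17405 genes, 0 of 89 members were called, beside 28 genes (0.161%) of the whole table. At an unadjusted p below 0.05, 10 of 89 members (11.2%) were lower in DICER1-ifKO, where the share of all genes was 4.8%, and 0 members were higher, where it was 5.63%. limma-voom also called 0 members, and DESeq2 called 1, Cycs. DESeq2 gave no adjusted p to members of lower count, Ndufa1 among them, so these could not be called by it. The signs were uneven: 73 of 89 members (82.0%) had a negative log2 fold change, against 51.0% of all tested genes, and the median was -0.05 against -0.003. The differences were small, with 68 of 89 members changed by less than 0.1 on the log2 scale and 85 by less than 0.2. In 11 members (12.4%) all DICER1-ifKO values lay below all WT values, beside 8.08% of all genes, and in 1 member (1.12%) all lay above, beside 7.99%. Without WT replicate 1, 58 of 89 members were negative, and with trends by transcript length and GC content taken out as well, 45 of 88 were.

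**Figure D1:**
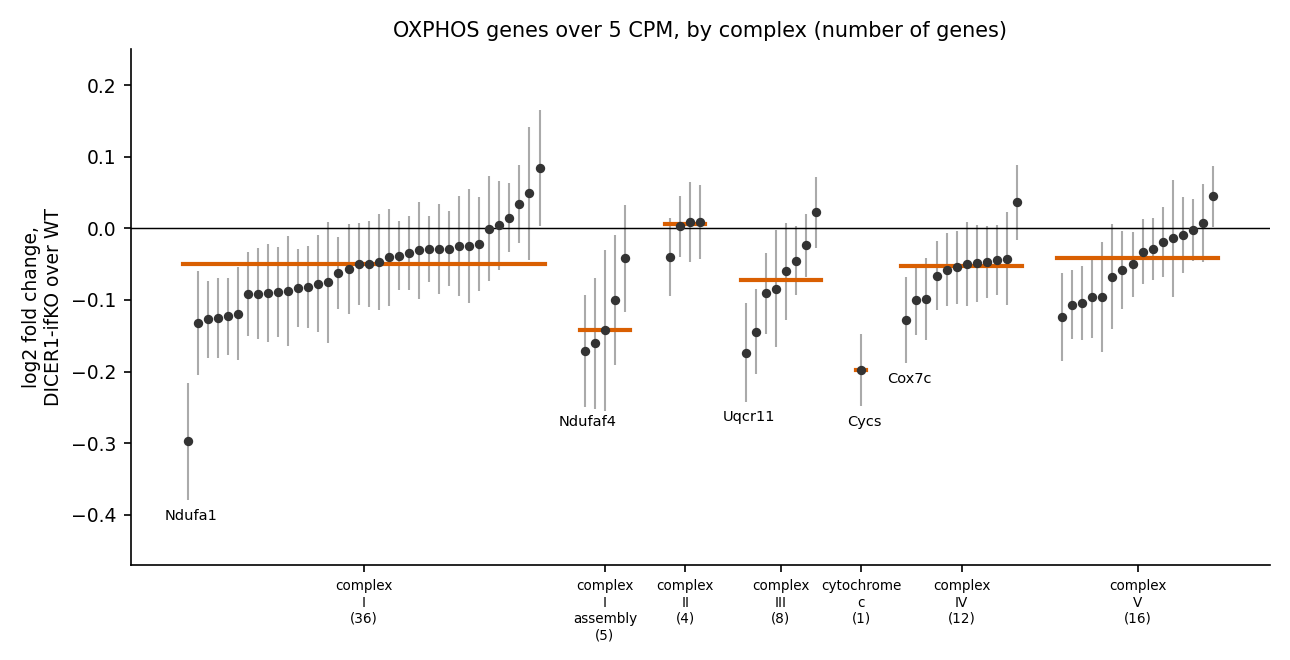
Log2 fold change of DICER1-ifKO over WT (vertical axis) for the 82 oxidative phosphorylation genes over 5 CPM, ordered within each complex along the horizontal axis; grey bars are the SE and orange lines the median of a complex. Complex II sits at 0 while the medians of complexes I, III, IV and V lie between -0.07 and -0.04, and Ndufa1 and Cycs reach furthest down.

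The lean of the members was followed library by library. WT replicate 1 stood apart from the other libraries along the first principal component of all genes (-26.6, all other libraries being positive) and had the lowest total count (11832794, against 15409074 to 20677845). Among the 82 respiratory members over 5 CPM, the median deviation from a gene's mean of log2(CPM + 0.5) was 0.081 in WT replicate 1, -0.028 in WT replicate 2 and 0.036 in WT replicate 3. It was -0.028, -0.049 and -0.008 in DICER1-ifKO replicates 1, 2 and 3. WT replicate 2 therefore lay among the DICER1-ifKO libraries, and the groups overlapped. For 44 of these 82 genes the highest value of all was in WT replicate 1. The median log2 fold change was -0.018 without WT replicate 1, while without WT replicate 2 it was -0.086 and 78 members were negative.

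**Figure D2:**
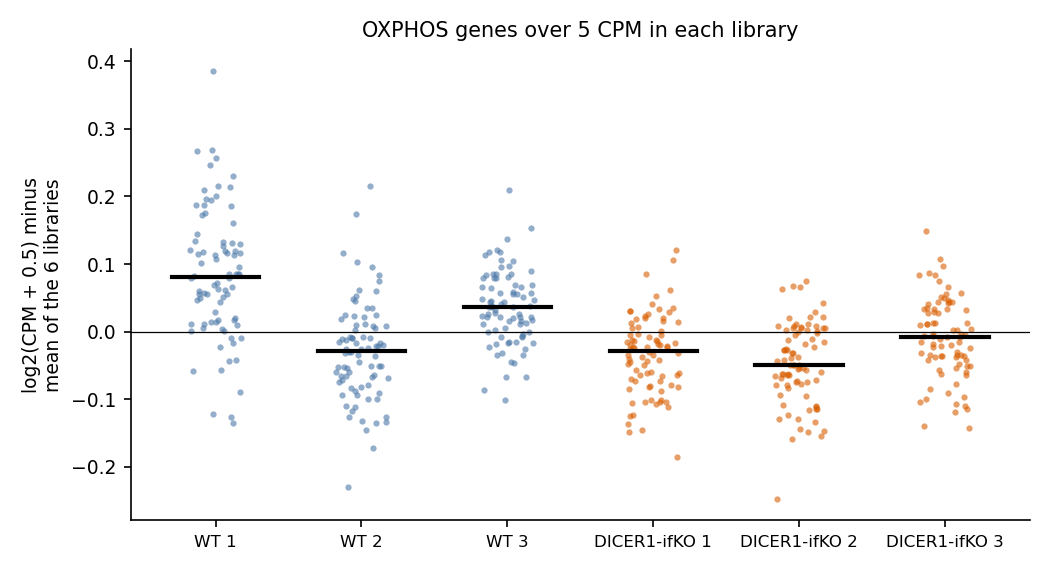
Deviation of log2(CPM + 0.5) from the mean of all 6 libraries (vertical axis) for the 82 respiratory genes over 5 CPM in each library (horizontal axis); each point is a gene and each black line a median. The median is highest in WT replicate 1 (0.081), and that of WT replicate 2 (-0.028) lies within the range of the DICER1-ifKO libraries.

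Most members have short transcripts, and short transcripts leaned the same way throughout the table. The median length of the tested members' transcripts was 892 nt against 2680 nt for all tested genes, and that of their 3′ UTRs was 187 nt against 1017 nt. Transcripts of up to 1000 nt made up 56.8% of the tested members and 13.5% of all tested genes. Across 16656 genes, Spearman's rho between length and log2 fold change was 0.204, a description across genes that share their libraries, and it was 0.111 without WT replicate 1. The median log2 fold change was -0.03 in the 2244 genes of up to 1000 nt, and the 44 members of this size over 5 CPM had -0.07. Without WT replicate 1 these medians were -0.02 for both. With per-library offsets that take out trends with transcript length and GC content, 61 of 88 members were negative, with a median of -0.019. With those offsets and without WT replicate 1, 45 of 88 were negative and the median was -0.001.

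**Figure D3:**
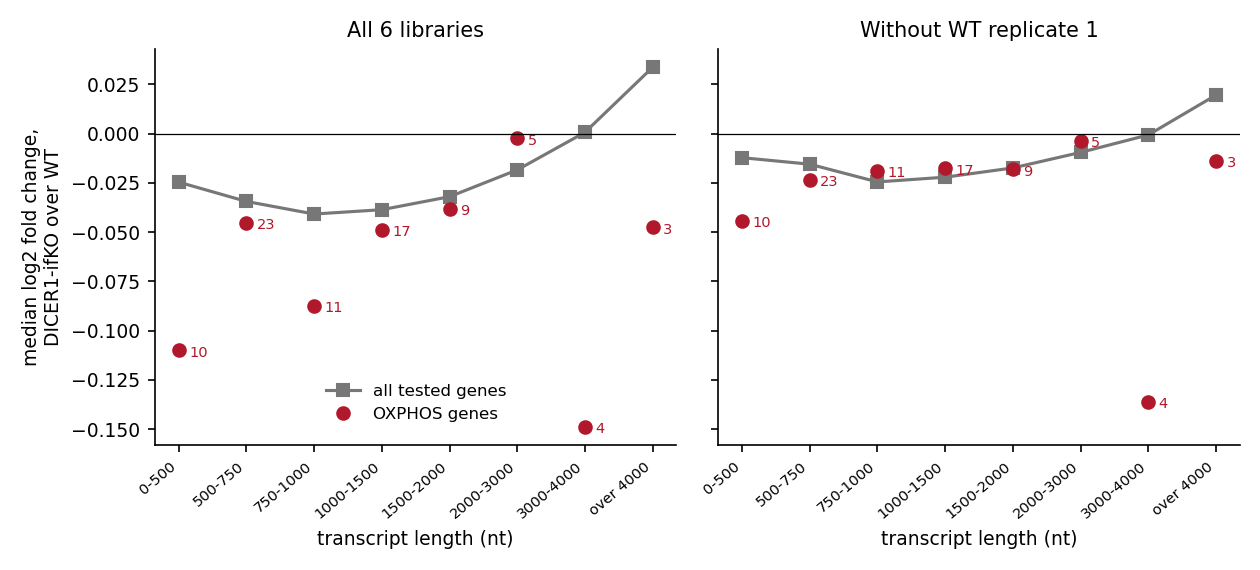
Median log2 fold change (vertical axis) by class of transcript length in nt (horizontal axis). Grey squares are all tested genes, and red points, with their number, are the members over 5 CPM. Cox4nb, which is not a respiratory gene, is counted in the class over 4000 nt. All 6 libraries are used on the left, and WT replicate 1 is left out on the right. Most classes of members lie near the grey line on the right, and the class of 3000 to 4000 nt, which has 4 members and includes Cycs (3123 nt), stays furthest below it. The class of up to 500 nt (10 members, -0.04 against -0.01) also lies below it there. So does the class over 4000 nt (3 members, -0.01 against 0.02).

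Ribosomal protein genes, mitochondrial and cytosolic, were set beside the members. Their median levels were 22.8 and 120.0 CPM, against 62.2 CPM for the members. The 76 mitochondrial ribosomal protein genes had a median of -0.07 with 63 negative, and the 81 tested cytosolic ribosomal protein genes had a median of -0.06 with 70 negative. Neither family had a called gene, and without WT replicate 1 their medians were -0.04 and -0.02. These values are a description, with no test against the respiratory genes.

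Cycs encodes cytochrome c, which carries electrons between complexes III and IV and also activates caspases when released into the cytosol. Its level was 158, 150 and 143 CPM in WT replicates 1, 2 and 3 and 126, 136 and 130 CPM in DICER1-ifKO replicates 1, 2 and 3. All DICER1-ifKO values lay below all WT values. The mean was 150.3 ± 7.36 CPM in WT and 131 ± 5.07 CPM in DICER1-ifKO (SD, n = 3), a fitted difference of -12.8% and a log2 fold change of -0.20 ± 0.05 (SE) with an adjusted p of 0.130 by edgeR. With DESeq2, which called 80 of the 17405 genes fitted (0.46%) and gave some of them no adjusted p, the adjusted p was 0.0479. With edgeR and no filter on low counts, which called 151 of 22441 genes (0.673%), it was 0.0437. Over the fits that leave out 1 library the log2 fold change ran from -0.23 to -0.16 and the adjusted p from 0.101 to 0.491. With the length and GC offset and without WT replicate 1 it was -0.14, with an adjusted p of 0.366. The transcript is long for a member, 3123 nt with a 3′ UTR of 2674 nt, and 28.5% of its stretches of 50 bases also occur in other genes, mainly pseudogenes, so that some reads may have been placed elsewhere.

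Ndufa1 is a small X-linked accessory subunit in the membrane arm of complex I. Its level was 32.1, 26.4 and 31.1 CPM in WT and 24.2, 22.5 and 25.8 CPM in DICER1-ifKO, in order of replicate number, and the groups did not overlap. The narrowest gap was between WT replicate 2 and DICER1-ifKO replicate 3. The mean was 29.8 ± 3.05 CPM against 24.2 ± 1.68 CPM (SD, n = 3), a fitted difference of -18.6% and a log2 fold change of -0.30 ± 0.08 (SE) with an adjusted p of 0.176 by edgeR. Without WT replicate 2 it was called, at an adjusted p of 0.0335, in a fit that called 105 genes (0.597%). Without the filter on low counts its adjusted p was 0.04999, and without WT replicate 1 it was 0.420 at a log2 fold change of -0.25. None of its 50-base stretches occur in another gene.

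**Figure D4:**
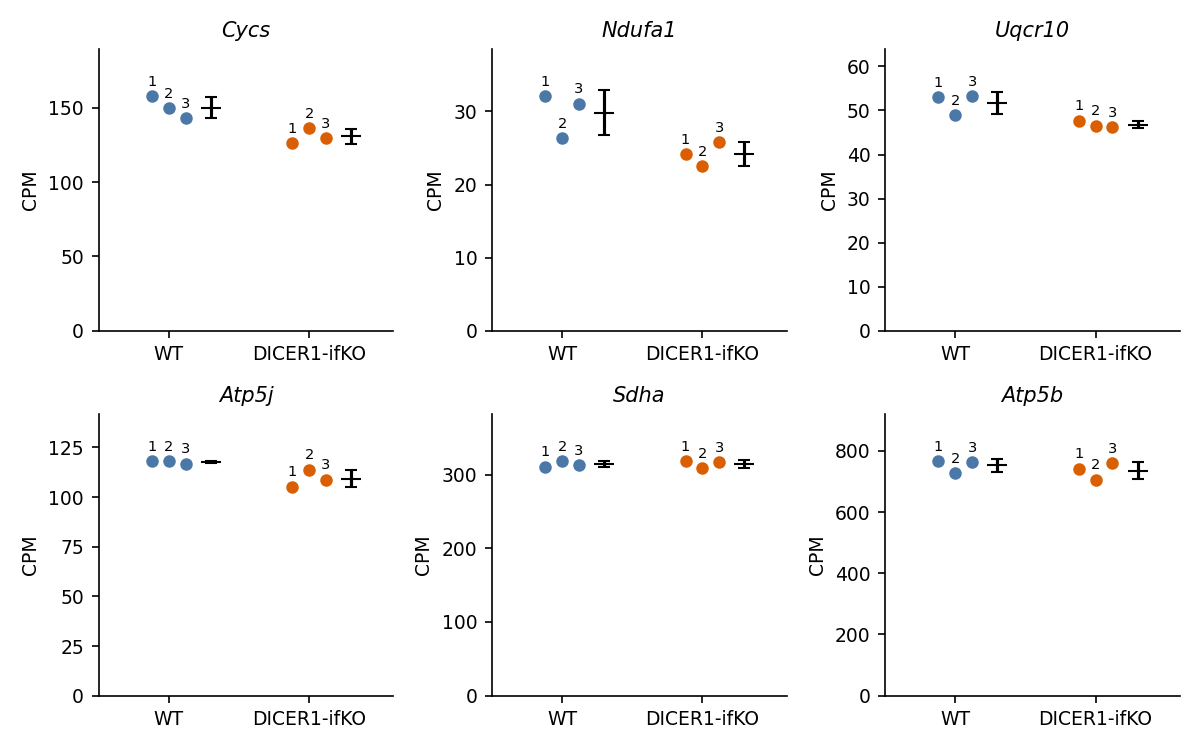
CPM (vertical axes, from 0) of 6 genes in the WT and DICER1-ifKO libraries; points are libraries marked with their replicate number, and the bars give mean ± SD, n = 3. Cycs, Ndufa1, Uqcr10 and Atp5j do not overlap between the groups, whereas Sdha and Atp5b do.

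In complex I, 31 of 36 subunit genes had negative log2 fold changes, with a median of -0.05 and none called. Summed over the subunits, the level was 2397 ± 97.5 CPM in WT and 2302 ± 40.8 CPM in DICER1-ifKO (SD, n = 3), with overlapping groups. Their log2 fold changes ran from -0.30 to 0.08, and without WT replicate 1 the median was -0.015 with 23 of 36 negative. The median was -0.082 when WT replicate 2 was left out instead. In 4 of the 36 genes all DICER1-ifKO values lay below all WT values, where the share of all tested genes was 8.08%. The 4 were Ndufa1, Ndufs4, Ndufs5 and Ndufab1, the last being also the mitochondrial acyl carrier protein. Ndufab1 had 84.2, 77.4 and 85.7 CPM in WT and 73.2, 76.4 and 76.5 CPM in DICER1-ifKO, and edgeR gave -0.13 ± 0.05 on the log2 scale with an adjusted p of 0.397. Ndufb8 and Ndufb9, subunits of the membrane arm, had unadjusted p-values of 0.0309 and 0.0365 at log2 fold changes of -0.12 and -0.13. Their groups overlapped. Ndufa2 (0.08) and Ndufb10 (0.03) had the smallest unadjusted p on the positive side, at adjusted p-values of 0.771 and 0.873 by edgeR. Per kilobase the highest complex I level was that of Ndufa3, 141 CPM per kb in WT.

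The 5 complex I assembly genes, whose products help to build the complex but are not part of it, all had negative log2 fold changes, from -0.17 to -0.04 with a median of -0.14, and none was called. Their summed level was 109.6, 105.1 and 99.99 CPM in WT replicates 1, 2 and 3 and 97.1, 94.6 and 97.3 CPM in DICER1-ifKO. The sums did not overlap between the groups, and the mean was lower by 8.15% in DICER1-ifKO. Ndufaf4, which acts in assembly of the membrane-bound part, had 29.2, 32.2 and 26.8 CPM in WT and 26.2, 24.8 and 27.2 CPM in DICER1-ifKO. DICER1-ifKO replicate 3 lay above WT replicate 3, and the log2 fold change was -0.17 ± 0.08 with an adjusted p of 0.451 by edgeR. Ndufaf1 had 15.4, 15.3 and 15.7 CPM in WT and 13.9 ± 0.984 CPM in DICER1-ifKO (SD, n = 3), without overlap. The adjusted p was 0.577 by edgeR, at a log2 fold change of -0.16. Without WT replicate 1 the median of the 5 genes was -0.14, but only 3 of them stayed negative, and with the offset as well it was -0.11. When WT replicate 2 was left out instead, it was -0.095.

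Complex II showed no lean. Succinate dehydrogenase, which also belongs to the TCA cycle, is encoded by Sdha (the flavoprotein), Sdhb (the iron-sulfur subunit) and the membrane anchors Sdhc and Sdhd. The summed level was 517 ± 3.99 CPM in WT and 517 ± 3.24 CPM in DICER1-ifKO (SD, n = 3). Sdha had 310.5, 318 and 313 CPM in WT and 318, 308 and 317 CPM in DICER1-ifKO, and its log2 fold change was 0.003 ± 0.04. The log2 fold changes of Sdhb, Sdhc and Sdhd were 0.01, 0.01 and -0.04. Sdhd alone did not overlap, at 55.8, 56.1 and 56.0 CPM in WT and 54.5, 53.1 and 55.7 CPM in DICER1-ifKO, with an adjusted p of 0.852 by edgeR. The median transcript length of these 4 genes was 2066 nt, longer than in the other complexes.

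In complex III, 7 of 8 genes had negative log2 fold changes with a median of -0.07, and none was called. Uqcr10 and Uqcr11 encode the smallest subunits of the complex. Uqcr11 had 53.3, 45.9 and 49.0 CPM in WT and 42.1, 41.4 and 47.2 CPM in DICER1-ifKO, where replicate 3 exceeded WT replicate 2. Its log2 fold change was -0.17 ± 0.07, with an adjusted p of 0.366 by edgeR. Uqcr10 had 53.0, 48.9 and 53.3 CPM in WT and 47.7, 46.6 and 46.2 CPM in DICER1-ifKO, without overlap, a log2 fold change of -0.14 ± 0.06 and an adjusted p of 0.383 by edgeR. Uqcrc1, a large core subunit facing the matrix, was the only gene of the complex with a positive value (0.02). Per kilobase, Uqcrh, the hinge subunit, was highest at 215 CPM per kb in WT. The median of the complex was -0.03 without WT replicate 1, 0.005 with the offset as well, and -0.128 without WT replicate 2.

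In complex IV, 11 of the 12 genes over 5 CPM had negative log2 fold changes with a median of -0.05, and none was called. Cox7c, a small membrane subunit, had 84.9, 72.7 and 76.9 CPM in WT and 71.7, 74.8 and 67.5 CPM in DICER1-ifKO. WT replicate 2 lay below DICER1-ifKO replicate 2, and the log2 fold change was -0.13 ± 0.06 with an adjusted p of 0.462 by edgeR. Cox6c had 105, 103 and 105 CPM in WT and 98.0, 93.2 and 100.3 CPM in DICER1-ifKO, without overlap, a log2 fold change of -0.10 and an adjusted p of 0.493 by edgeR. Cox5b, which binds zinc on the matrix side, was the only one of the 12 with a positive value (0.04). Reads of Cox7c are uncertain, since 53.0% of its 50-base stretches also occur in other genes. The median of these 12 genes was -0.02 without WT replicate 1 and -0.01 with the offset as well. Over all 18 tested genes of the complex it was -0.05, and -0.098 without WT replicate 2.

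Several complex IV subunits have a common isoform and a second one known from muscle, lung, testis or hypoxic cells, and the hippocampal libraries were made up of the common one in every such pair. Per kilobase of the transcript used, Cox4i1 had 296.5 and Cox4i2 1.10 CPM per kb in WT, and Cox6a1 had 247 and the muscle form Cox6a2 had 1.99. Cox6b1 had 367 and the testis form Cox6b2 had 1.87 CPM per kb. Cox7a2 had 124, Cox7a2l had 87.5 and the muscle form Cox7a1 had 2.12. Cox7b had 128 and the testis form Cox7b2 had 1.10 CPM per kb. Ndufa4, with 376, was the highest of complex IV, and Ndufa4l2, known for its induction in hypoxia, had 1.82. Cox8a had 288 CPM per kb, while Cox8b and Cox8c did not pass the filter: Cox8b was at 0.255, 0.063 and 0 CPM in WT and 0.195, 0.222 and 0.098 CPM in DICER1-ifKO, and Cox8c had no count in any library. Each low isoform that was tested was at most at 2.27 CPM in every library, and their log2 fold changes ran from -0.54 (Cox6a2) to 0.27 (Cox7b2) with SE of 0.270 to 0.403. None of them was called, and Cox6a2, at 1.70, 1.01 and 1.35 CPM in WT and 0.844, 0.888 and 0.977 CPM in DICER1-ifKO, was the only one without overlap.

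**Figure D5:**
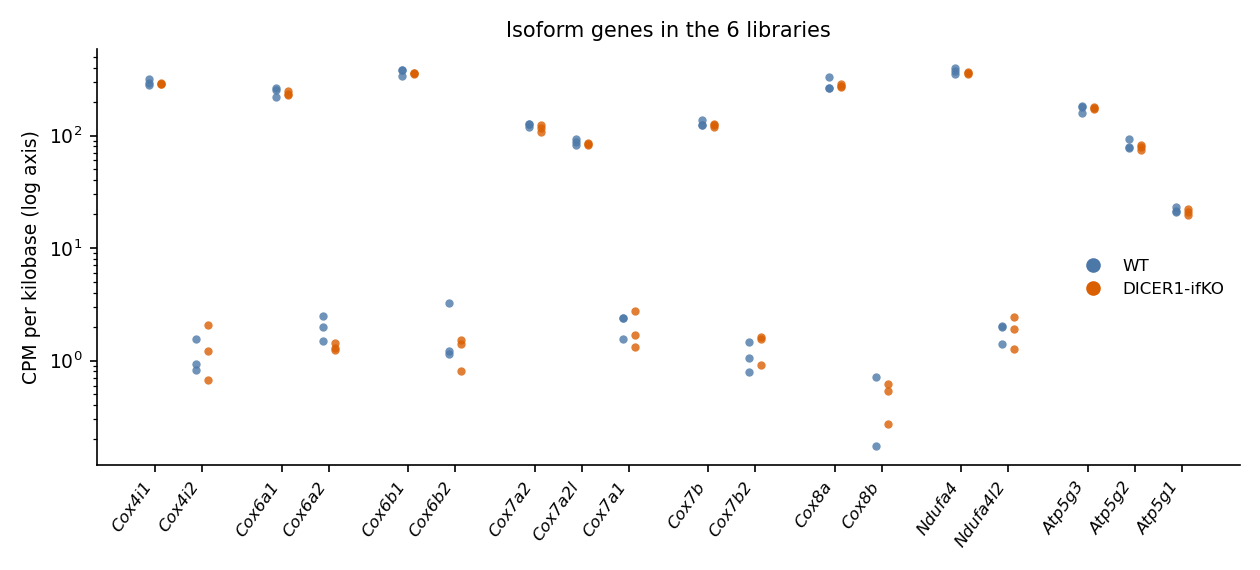
CPM per kilobase of transcript (vertical log axis) of the isoform genes of complexes IV and V in WT (blue) and DICER1-ifKO (orange); each point is 1 library, and a Cox8b value of 0 in WT replicate 3 is not drawn. The common and the low isoforms are separated by a wide gap and the groups overlap in every gene drawn except Cox6a2.

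In complex V, 14 of 16 genes had negative log2 fold changes with a median of -0.04, and none was called. The 5 subunits of the F1 part, the catalytic head (Atp5a1, Atp5b, Atp5c1, Atp5d and Atp5e), had a median of -0.03, and the other 11 genes, mainly of the membrane part and the stalk, had -0.06. The median of the complex was -0.02 with 11 negative when WT replicate 1 was left out, and with the offset as well it was -0.003 with 8 negative. When WT replicate 2 was left out instead, the median was -0.068. Atp5b, the catalytic beta subunit, had 767, 727 and 764 CPM in WT and 742, 706 and 759 CPM in DICER1-ifKO, with overlapping groups and a log2 fold change of -0.03 ± 0.05. Atp5j, coupling factor 6 of the stalk, had 118, 118 and 117 CPM in WT and 105, 114 and 109 CPM in DICER1-ifKO. Its groups did not overlap, and its log2 fold change was -0.11 ± 0.05 with an adjusted p of 0.445 by edgeR. Atp5l had -0.10 at an adjusted p of 0.493, with 84.8% of its 50-base stretches shared with other genes. The 3 genes for the same mature c subunit of the rotor ring differed in level: Atp5g3 had 174, Atp5g2 83.1 and Atp5g1 21.8 CPM per kb in WT. Before division by length their WT means were 125.8, 36.6 and 102.7 CPM, so the order of Atp5g2 and Atp5g1 rested on the transcript lengths. The transcript used for Atp5g1 is 4715 nt long, most of it 3′ UTR, and all 50-base stretches of Atp5g2 occur in pseudogenes. Their log2 fold changes were 0.01, -0.07 and -0.06.

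Atp5o was the 1 member in which every DICER1-ifKO value lay above every WT value, and that rested on the transcript model. Its most counted transcript, Atp5o-008 (GRCm38 chr16:91684398-91926982, minus strand), runs far beyond the gene and shares exons with Donson, and it had 327, 334 and 333 CPM in WT and 343, 346 and 335 CPM in DICER1-ifKO (log2 fold change 0.04). A shorter transcript, Atp5o-001 (chr16:91925214-91931687), had 141, 131 and 140 CPM in WT and 137.5, 136 and 133 CPM in DICER1-ifKO. For it the groups overlapped and the log2 fold change was -0.01 ± 0.05 (SE).

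The rest of the pathway was described from lists of genes outside the rule. The 13 subunits encoded by the mitochondrial chromosome had a median of 0.02 with 10 positive, 0 called by edgeR and 0 at an unadjusted p below 0.05. Without WT replicate 1 the median was 0.10 with all 13 positive, and with the offset as well it was 0.13. They took 8.47% to 9.99% of the counts in WT and 9.18% to 9.39% in DICER1-ifKO, while the nuclear members took 0.818% to 0.863% and 0.811% to 0.823%. The largest values were those of mt-Atp8 (0.14, adjusted p 0.541 by edgeR) and mt-Nd5 (0.09, adjusted p 0.605 by edgeR). Of 4 nuclear subunit genes with other symbols, all were negative, and Atpif1, the inhibitor of ATP synthase, had 79.4, 77.1 and 77.2 CPM in WT and 69.9, 68.1 and 73.5 CPM in DICER1-ifKO. Its log2 fold change was -0.14 with an adjusted p of 0.322 by edgeR, without overlap. Only 1 of the 4 was negative without WT replicate 1, at a median of 0.01. Among 28 further assembly factors 16 were negative, and Atpaf1, for the F1 part, had 0.15 (adjusted p 0.370) and Ttc19, of complex III, had -0.07 (adjusted p 0.615, edgeR).

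Among 18 regulators of mitochondrial biogenesis 7 were negative, with a median of 0.01 and 0 called by edgeR. These values were 11 and -0.02 without WT replicate 1. Tfb2m, a mitochondrial transcription factor, had 29.9, 28.0 and 27.8 CPM in WT and 25.7, 25.9 and 25.5 CPM in DICER1-ifKO. Its log2 fold change was -0.15 with an adjusted p of 0.472 by edgeR. Esrra, a nuclear receptor that activates respiratory genes, had 0.14 with an adjusted p of 0.518 by edgeR. Among 18 genes of the TCA cycle and pyruvate dehydrogenase, 14 were negative with a median of -0.04 and 0 called by edgeR. An unadjusted p below 0.05 by edgeR was found in 3 of the 18, all negative, where the share of all tested genes was 4.8%. Without WT replicate 1 the median was -0.007 with 12 negative, and with the offset as well 8 of 17 were negative. Sucla2, a subunit of succinyl-CoA ligase, had -0.12 (adjusted p 0.356), and Pdha1, the X-linked alpha subunit of pyruvate dehydrogenase, had -0.11 (adjusted p 0.400, edgeR).

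The label and tissue were checked once. Dicer1 had a log2 fold change of 0.04 with an adjusted p of 0.849 by edgeR, and counts over the whole transcript do not test the deletion of a floxed exon in part of the cells. Reads assigned to Esr1, whose ligand-binding part is in the recombinase, were higher in DICER1-ifKO (1.58, adjusted p 7.53e-06 by edgeR), with 3.26 to 4.78 CPM in WT and 10.1 to 13.7 CPM in DICER1-ifKO. The 7 pyramidal neuron markers summed to 5150 to 5299 CPM in WT and 5307 to 5651 CPM in DICER1-ifKO, so that defining markers of the labelled tissue were present. Their sums did not overlap while 0 of the 7 was called. Sums of the markers of inhibitory neurons (641.6 to 706 against 660.5 to 701), astrocytes (1564 to 1623 against 1552 to 1574), microglia (303 to 320.0 against 303 to 309) and oligodendrocytes (3732 to 4593 against 3875 to 4463) overlapped, as did those of endothelial, choroid plexus, erythrocyte and muscle markers. No gene in these lists was called and none was at 0 in all libraries, and the part of cell composition in the members' values was not tested.

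Promoters of respiratory genes are known for sites of NRF1, of the ETS factor GABP and of YY1, and 75 of the 91 members matched a promoter window of 250 bases before to 50 bases after a transcription start in RefSeq (GRCm38.p6). Exact matches were searched on both strands to the letters GCATGCGC for NRF1, CCGGAAG for ETS factors and AAGATGGCG for YY1. The NRF1 letters were in 12 of 75 windows (16.0%), against 4.76% of the 12655 windows of tested genes and 2.78% of all 27025. The ETS letters were in 16 (21.3%), against 15.9% and 9.08%, and the YY1 letters were in 7 (9.3%), against 2.74% and 1.49%. CCAAT, a common promoter element, was in 46.7% of the members' windows against 38.4% and 37.8%. The median log2 fold change was -0.08 in members with the NRF1 letters and -0.05 in those without, whereas for the ETS letters (-0.04 and -0.06), the YY1 letters (-0.05 and -0.06) and CCAAT (-0.05 and -0.06) the members with a match had the value nearer to 0. Of the 10 members at an unadjusted p below 0.05, 9 had a window, and the NRF1 letters were in 3 of these (Cycs, Uqcr11 and Ndufaf4) and not in the other 6, Ndufa1 among them. The windows of Cycs and Uqcr11 were picked as examples with a match and are shown 5′ to 3′ on the gene's strand, with NRF1 and ETS matches in capitals. In Cycs (chr6:50566520-50566819, minus strand) the match begins 60 bases before the start, and in Uqcr11 (chr10:80406772-80407071, minus strand) it begins 4 bases before it, with an ETS match at 66 bases.
Cycs promoter: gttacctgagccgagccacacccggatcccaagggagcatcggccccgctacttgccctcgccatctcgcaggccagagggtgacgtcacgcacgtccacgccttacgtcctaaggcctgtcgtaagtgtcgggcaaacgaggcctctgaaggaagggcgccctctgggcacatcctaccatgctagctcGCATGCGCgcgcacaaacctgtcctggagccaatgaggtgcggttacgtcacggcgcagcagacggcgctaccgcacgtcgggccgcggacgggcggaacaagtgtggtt
Uqcr11 promoter: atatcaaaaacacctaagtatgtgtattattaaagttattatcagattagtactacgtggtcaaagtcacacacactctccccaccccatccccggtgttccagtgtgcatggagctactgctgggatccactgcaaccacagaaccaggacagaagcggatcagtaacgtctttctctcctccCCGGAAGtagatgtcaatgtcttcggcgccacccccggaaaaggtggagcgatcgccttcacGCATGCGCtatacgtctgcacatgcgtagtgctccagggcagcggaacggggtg
The matches are descriptions of these letters and not of bound factors. The medians with and without a match were not tested, and were not taken without WT replicate 1.

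Because Dicer makes mature microRNAs, 3′ UTRs of the members were searched for exact matches to the seeds (bases 2 to 8) of 5 microRNAs of brain or mitochondrial interest. miR-338-3p is known for targeting Cox4i1 in axons, miR-210-3p for acting on mitochondrial genes in hypoxia, and let-7c-5p, miR-9-5p and miR-128-3p are abundant in brain. The sequences with a site printed below are given from RefSeq with the seed in capitals.
mmu-miR-338-3p: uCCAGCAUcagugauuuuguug
mmu-miR-128-3p: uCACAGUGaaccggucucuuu
mmu-let-7c-5p: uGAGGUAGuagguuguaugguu
mmu-miR-9-5p: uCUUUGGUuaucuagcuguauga
A miR-338-3p seed match was in 2 of 84 members with a 3′ UTR (2.4%), against 12.9% of 13939 tested genes, and a miR-128-3p match was in 5 (6.0%, against 20.4%). For miR-9-5p it was 3 (3.6%, against 12.9%), for let-7c-5p 1 (1.2%, against 9.4%) and for miR-210-3p 1, Ndufa13 (1.2%, against 3.2%). The 3′ UTRs of the members are shorter than those of all genes, and the shares were not corrected for that.

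The members with a seed match had log2 fold changes near 0 or negative, as did most members (73 of 89 negative, median -0.05). No test compared members with and without a match. The miR-210-3p match was in Ndufa13 (-0.06). The miR-338-3p matches were in Cox4i1 (-0.04) and Ndufaf4 (-0.17), that of let-7c-5p was in Cox7b (-0.05), and those of miR-9-5p were in Ndufb2 (-0.05), Ndufab1 (-0.13) and Cox4nb. The miR-128-3p matches were in Atp5sl (-0.04), Uqcrq (-0.08), Atp5g1 (-0.06), Sdha (0.003) and Cox4nb (0.01). Some are shown as they lie in the 3′ UTR of the mRNA, with the match to the seed in capitals, at GRCm38 chr4:24902470-24902492 (plus strand) in Ndufaf4, chr11:53428901-53428923 (minus) in Uqcrq, chrX:106022187-106022209 (plus) in Cox7b and chr7:122086614-122086636 (minus) in Ndufab1.
Ndufaf4, miR-338-3p match: tatctgacATGCTGGctgtctct
Uqcrq, miR-128-3p match: caaggtctCACTGTGtgtccctg
Cox7b, let-7c-5p match: actgccctCTACCTCgtggttat
Ndufab1, miR-9-5p match: agaaaggtACCAAAGtgtgaatt
None of these genes passed the test.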

How the data were processed

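Per the submitters' processing notes, the authors used TopHat2 2.0.6, Bowtie2 2.0.5, CASAVA 1.8.2, DESeq2 and SAMtools 0.1.18, naming GRCm38 and mm10 as builds. How reads were assigned to transcripts, from which annotation and with which strand option is not given in the sources, so reads of overlapping genes on opposite strands cannot be separated. The deposited files list 76938 transcripts with, per the file headers, raw counts, which the authors counted for each transcript, and normalised counts. The second value (unit signal), as deposited, equals the count over a single factor for each library, and no test used them.

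The design had assumed 1 count per gene. As reads in shared exons were counted for several transcripts, the transcript of highest mean raw count stood for each gene. Total counts over these transcripts ran from 11832794 to 20677845 per library. Chi-square per degree of freedom between libraries of a group was 1.75 to 4.35, so each library counted as 1 replicate. The design text states 12 mice per genotype, while 3 pools of 3 mice entered these libraries.

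The test was that of edgeR 4.0.16 under R 4.3.3 (TMM, filterByExpr with its minimum count of 10, quasi-likelihood F-test, genotype only, Benjamini-Hochberg over all genes tested, threshold 0.05), and the fitting script was tested on simulated data. SE is the size of the log2 fold change divided by the square root of F, and the common biological coefficient of variation was 0.0464. Alternatives were DESeq2 1.42.0, limma-voom (limma 3.58.1), no filter, the sum over transcripts, a replicate block, an offset for transcript length and GC content, and leaving out each library. Lengths came from GENCODE M21, with identical coordinates for 59 members and the nearest transcript ends for the rest of the 90 matched. Ndufa11 had no match and is missing from values with lengths and from fits with the offset. The symbol Atp5l-ps1 was left out by the rule.

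The members and lists were chosen with earlier results of these data known. Named are Ndufa1, Cycs, in each complex the genes of smallest unadjusted p in each direction and of highest level per kilobase, isoform sets, members that did not pass the filter, and in other lists the 2 genes of smallest p. F1 subunits, genes with motif or seed matches, Uqcrq, Ndufs4, Ndufs5, Ndufb2, Ndufb8, Ndufb9, Atp5b and the class of low isoforms were named after their values were seen. Motifs and microRNAs were also picked at that stage.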

Additional observations from a re-analysis of the deposited data

How the results depend on the processing

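The number of members called was 0 with edgeR as described. It was 1 with DESeq2 (Cycs), which gave members of lower count, Ndufa1 among them, no adjusted p. Without the filter on low counts it was 2 (Cycs and Ndufa1). Over the fits that leave out 1 library it was 0 to 1, where the call was Ndufa1 without WT replicate 2. When WT replicate 1 was left out and length and GC trends were taken out by the offset, 45 of 88 members were negative and the median log2 fold change was -0.001; the cause was not tested. Leaving out 1 library gave 58 to 78 negative members and medians of -0.086 to -0.018. With a replicate block 74 members were negative, the median was -0.05 and 0 were called, and with block and offset 60 were negative. No source states that the replicate numbers pair the samples, and 3 libraries per group are too few to decide it. Deviations from the group mean correlated at -0.0681, 0.0278 and -0.0863 between same-numbered libraries, and at up to 0.128 between others. Of the 73 negative members, 48 kept their sign in each of the 6 fits without 1 library and 36 in all 15 alternatives; of the 16 positive ones 5 and 4 did. The transcript Atp5o-001 was put in place of Atp5o-008 after seeing the data. It turned the log2 fold change of Atp5o from 0.04 to -0.01. Nothing says whether the mice of a pool shared litters, and p-values measure the spread between pools. The simulated data, at these library sizes, served to check the fitting script. The smallest difference that this depth and number of libraries could show is not given here.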
